A study of Mus musculus with 6 samples.

Results

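Extracellular ATP, ADP, UDP-glucose and adenosine act on astrocytes through purinergic receptors, and membrane enzymes, the ectonucleotidases, convert one of these messengers into the next. The 10 genes described here are the metabotropic P2Y receptor genes *P2ry1*, *P2ry2* and *P2ry14*, the ATP-gated P2X channel genes *P2rx4* and *P2rx7*, the adenosine receptor genes *Adora1*, *Adora2a* and *Adora2b*, and the ectonucleotidase genes *Entpd2* and *Nt5e*. They were taken by gene symbol and not by any measured value, although earlier results of these data were known. All 10 were found among the 24421 genes measured. The microglial ADP receptor gene *P2ry12* was kept apart and appears only beside the P2Y class. RNA was sequenced from astrocytes isolated from the hippocampus of adult male C57BL/6 mice, 3 libraries after PBS and 3 after diphtheria toxin (DT), with 2 mice pooled for each library and the pools coming from independent experiments. All mice of both groups were homozygous for *Siglech* dtr, an allele that places the diphtheria toxin receptor in the *Siglech* locus and lowers Siglec-H in microglia. PBS or DT at 50 µg/kg was injected into the peritoneal cavity 2 days before sampling, and in this line DT kills microglia. The cells were first depleted of CD11b+ microglia on a magnetic column and then selected with beads against ACSA-2, an astrocyte surface antigen encoded by *Atp1b2*. No group of mice without the allele was part of these libraries, so the toxin and the loss of microglia cannot be told apart.

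ATP and ADP leave cells through channels, vesicles or damage and are broken down outside the cell in steps. NTPDases such as the products of *Entpd2* and *Entpd1* remove phosphates from ATP and ADP, and ecto-5′-nucleotidase (CD73), the product of *Nt5e*, turns AMP into adenosine, which is then taken up and phosphorylated by adenosine kinase. P2Y1 binds ADP and P2Y2 binds ATP and UTP, and both raise calcium through Gq in astrocytes, while P2Y14 binds UDP-sugars and couples to Gi. The adenosine A1 receptor lowers cyclic AMP through Gi, and both A2 receptors raise it through Gs.

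The libraries held 21704891 to 32933975 reads assigned to genes, so 1 read was worth 0.0301 to 0.0460 CPM, a read count relative to library size. Levels are given as TPM, which also divide by transcript length and allow genes to be compared with each other. Differences are log2 fold changes of CPM + 0.1, DT minus PBS, with their standard errors (SE) from limma with adjustment over all 15137 genes whose CPM averaged 0.5 or more. This scale understates the change of genes with few reads. The summed level of 15 astrocyte markers was 37516 to 38536 TPM after PBS and 39341 to 42177 TPM after DT, and *Gfap* was the 1 marker of that list that was called, higher after DT. Without *Gfap*, the other 14 summed to 36436 to 37542 TPM after PBS and 35453 to 37650 TPM after DT, overlapping ranges. The summed level of 20 microglia markers was 355 to 456 TPM after PBS and 205 to 231 TPM after DT, and 10 of the 20 were called lower. *Siglech* itself was at 1.14, 2.62 and 2.36 TPM in the PBS libraries and at 0 in each of the 3 DT libraries, which allows up to 3 reads, or 0.0975 to 0.131 CPM, by counting error alone. Of 9 border-associated macrophage markers tested 3 were called higher, and the list summed to 24.4 to 40.1 TPM after PBS and 75.2 to 93.8 TPM after DT. In bulk RNA, fewer cells of a type and less RNA per cell cannot be told apart.

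All 10 purinergic genes were read in every library, over a range of levels. *Entpd2* stood first with a mean over the 6 libraries of 86.8 ± 7.86 TPM (SD, n = 6), followed by *Adora1* at 56.5 ± 10.7 TPM, *Adora2b* at 40.2 ± 3.999 TPM and *P2rx7* at 34.9 ± 3.32 TPM. *P2ry14* at 22.9 ± 4.10 TPM and *P2rx4* at 15.8 ± 1.23 TPM came next. *Adora2a* had 8.47 ± 2.33 TPM and *P2ry1* 3.95 ± 0.732 TPM. *Nt5e* at 1.67 ± 0.505 TPM and *P2ry2* at 1.43 ± 0.386 TPM were the lowest. The ranges of neighbours in this order did not overlap between *Entpd2* and *Adora1*, *Adora1* and *Adora2b*, *P2rx7* and *P2ry14*, *P2rx4* and *Adora2a*, or *P2ry1* and *Nt5e*. The ranges of *Adora2b* and *P2rx7*, of *P2ry14* and *P2rx4*, and of *Adora2a* and *P2ry1* overlapped, although the first of each pair was above the other in 6 of 6 libraries. *Nt5e* was above *P2ry2* in 4 of 6 libraries, and these lowest genes did not differ beyond their spread. Among the genes tested, *Entpd2* lay at percentile 86.3 of the PBS level and *Nt5e* at percentile 5.97. The 10 genes together summed to 260 to 273 TPM in the PBS libraries and to 277 to 282 TPM in the DT libraries.

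**Figure D1:**
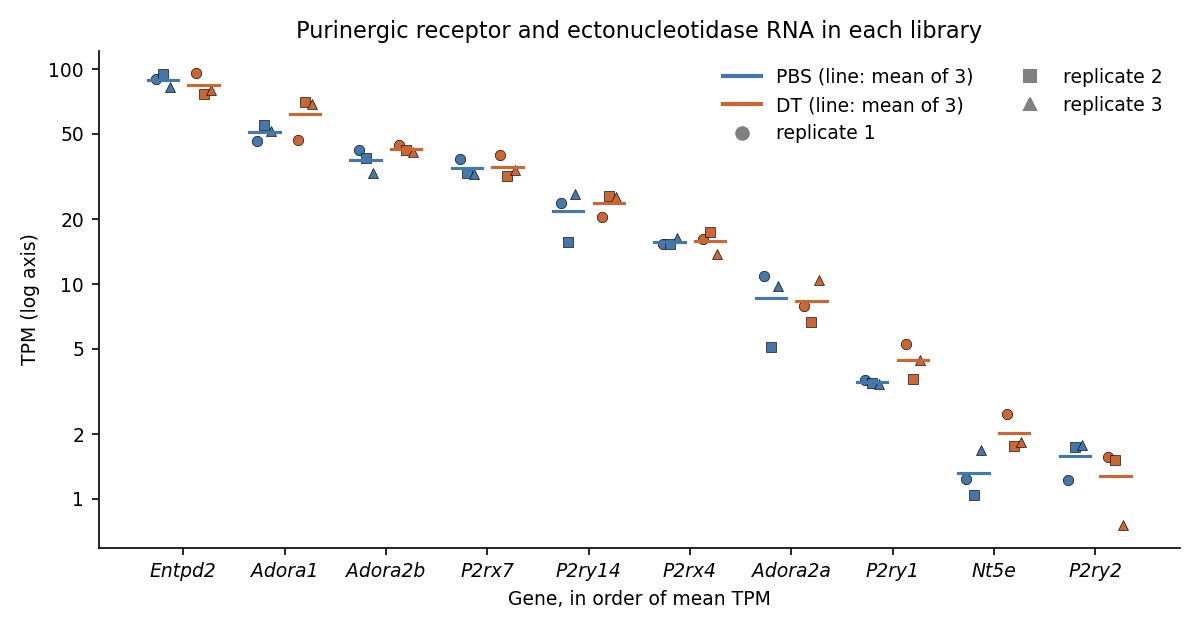
Level of each of the 10 genes in each library, in TPM on a log axis, ordered by the mean over 6 libraries. Each symbol is 1 library (circle, square and triangle for replicates 1, 2 and 3), lines are means of 3, blue is PBS and orange is DT. The levels fall from 86.8 TPM for *Entpd2* to 1.43 TPM for *P2ry2*, while the PBS and DT symbols of most genes lie over the same range.

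The comparison of DT with PBS asks whether astrocytes changed their purinergic gene expression after the ablation of microglia. None of the 10 genes passed an adjusted p of 0.05 with limma, and none had an unadjusted p under 0.05. Over all genes tested, 0.713% were called, 0.555% higher and 0.159% lower after DT, and 10.4% had an unadjusted p under 0.05. The count was also 0, at either threshold, with the edgeR quasi-likelihood test and with DESeq2 on the recovered reads. Over all genes DESeq2 called 2.15%, and edgeR gave 10.3% an unadjusted p under 0.05. No member was without overlap of CPM between the groups, against 16.3% of all genes tested. In TPM the groups of *P2ry1* and *Nt5e* did not overlap, and the share of all genes without overlap in TPM was not computed. The sign was positive for 6 members and negative for 4, and their median log2 fold change was 0.15, beside −0.01 over all genes tested. A missed threshold does not show that levels were equal, and the 95% interval of each difference therefore follows with the values.

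**Figure D2:**
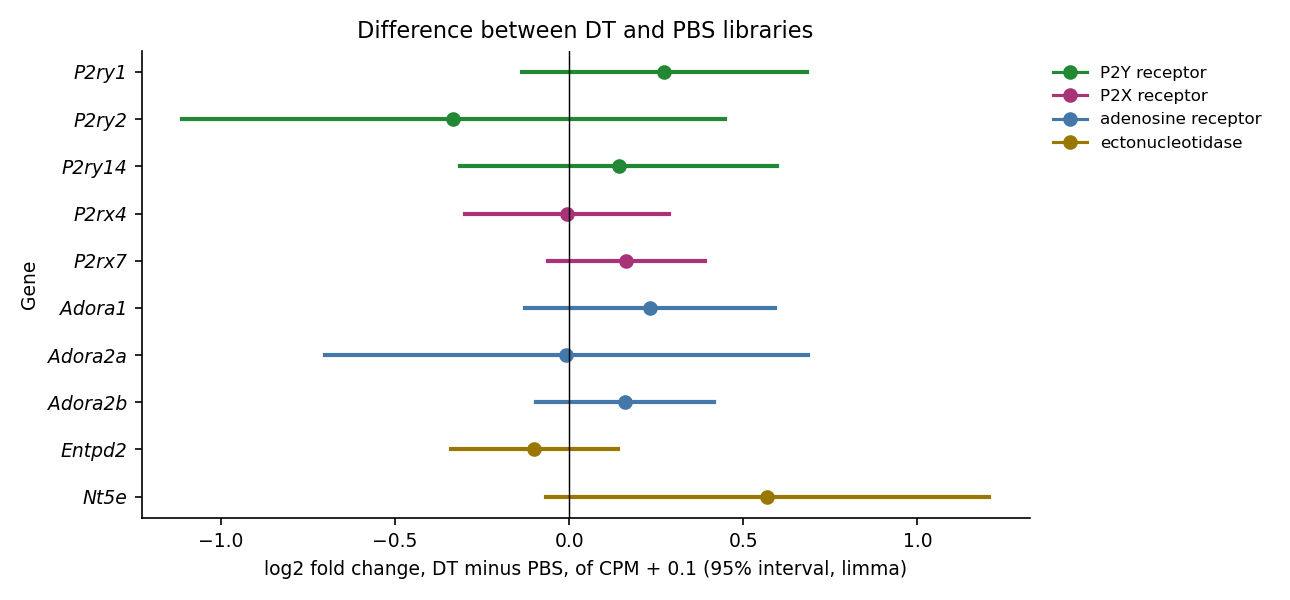
Log2 fold change of CPM + 0.1, DT minus PBS, for each of the 10 genes (point) with its 95% interval from limma (bar), coloured by class. All 10 intervals cross 0, and the interval is narrowest for *P2rx7* and widest for *P2ry2*.

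*Adora1* encodes the Gi-coupled adenosine receptor that dampens transmitter release and lowers cyclic AMP. It occupies bases 134199223 to 134235431 of chromosome 1 on the minus strand (mm10) and overlaps *Mybph* on the opposite strand. Its level was 46.3, 54.8 and 51.7 TPM in the PBS libraries and 46.7, 70.3 and 69.1 TPM in the DT libraries. DT replicates 2 and 3 lay above every PBS library, and DT replicate 1 lay within the PBS range. Its log2 fold change of 0.23 had an SE of 0.16 and an adjusted p of 0.663, and the interval allowed folds from 0.916 to 1.505. The size depended on single libraries: it was 0.12 without DT replicate 2, 0.14 without DT replicate 3, 0.17 without PBS replicate 1, and 0.44 without DT replicate 1. In the last case limma gave an unadjusted p of 0.000750 and an adjusted p of 0.112.

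*Adora2b*, whose product is the adenosine receptor of low affinity that couples to Gs, lies on chromosome 11 from 62248984 to 62266453. It had 41.9, 38.6 and 32.9 TPM after PBS and 44.4, 41.9 and 41.1 TPM after DT. The DT values were close together, with an SD of 1.73 TPM, and overlapped the upper end of the PBS range. The difference, 0.16 with an SE of 0.11 on the log2 scale, had an adjusted p of 0.670 and an interval of folds from 0.935 to 1.33. It was 0.06 without PBS replicate 3 and 0.25 without PBS replicate 1. *Adora2a*, which encodes the Gs-coupled receptor of high affinity, lies on chromosome 10 from 75316877 to 75334784. Its level was 10.95, 5.06 and 9.80 TPM after PBS and 7.88, 6.64 and 10.5 TPM after DT, and the DT range lay inside the PBS range. Its log2 fold change was near 0, −0.0083 with an SE of 0.30 and an adjusted p of 0.995, but with 147 to 216 reads and a wide spread in the PBS group the interval allowed folds from 0.615 to 1.61, and the difference was −0.36 without PBS replicate 2 and 0.21 without PBS replicate 1.

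Within the adenosine receptors, *Adora1* made up 52.3 ± 4.93% (SD, n = 3) of the class TPM after PBS and 54.5 ± 6.43% after DT. *Adora2b* made up 38.8 ± 3.76% and 38.1 ± 5.91%, and *Adora2a* 8.85 ± 3.23% and 7.40 ± 1.61%. The fourth receptor gene, *Adora3*, had 3 reads in PBS replicate 3 and none in the other libraries. The Gi-coupled and Gs-coupled receptors were thus both present in RNA, and the order of the 3 genes was the same in all 6 libraries. The class summed to 97.4 ± 2.47 TPM after PBS and to 113 ± 11.98 TPM after DT.

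*P2ry14*, which encodes the receptor for UDP-glucose and related UDP-sugars, was the P2Y member with the highest level. It occupies bases 59113855 to 59153618 of chromosome 3 on the minus strand, inside *Med12l* on the opposite strand. Its level was 23.7, 15.6 and 26.2 TPM after PBS and 20.6, 25.6 and 25.5 TPM after DT. PBS replicate 2 was the lowest library, and the other 5 lay between 20.6 and 26.2 TPM. On the log2 scale the difference was 0.14 with an SE of 0.20 (adjusted p = 0.854, folds from 0.805 to 1.51), and it ran from −0.10 without PBS replicate 2 to 0.28 without PBS replicate 3.

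*P2ry1*, the gene of the Gq-coupled ADP receptor, lies on chromosome 3 from 61002795 to 61008982 and overlaps the antisense gene *Gm37035*. It had 3.58, 3.46 and 3.43 TPM after PBS and 5.25, 3.59 and 4.41 TPM after DT. The 3 PBS values were within 0.0806 TPM (SD) and all DT values lay above them in TPM, while in CPM the ranges overlapped, since DT replicate 2 had 4.68 CPM and PBS replicate 1 had 4.88 CPM. *P2ry1* had a log2 fold change of 0.27 with an SE of 0.18, an adjusted p of 0.650 and an interval of folds from 0.910 to 1.61. The value was 0.14 without DT replicate 1 and 0.39 without DT replicate 2, and each library held 94 to 152 reads.

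*P2ry2*, which encodes the Gq-coupled receptor for ATP and UTP, occupies bases 100996568 to 101012866 of chromosome 7 on the minus strand. It had 1.22, 1.74 and 1.78 TPM after PBS and 1.56, 1.51 and 0.753 TPM after DT. DT replicate 3 was the lowest and held 18 reads, while the other DT libraries lay inside the PBS range. The difference was −0.33 on the log2 scale with an SE of 0.34 (adjusted p = 0.783), and at this depth the interval allowed folds from 0.463 to 1.36. Without DT replicate 3 the difference was −0.02, and without DT replicate 1 it was −0.52.

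Of the 8 P2Y genes summed, *P2ry14* and *P2ry12* held most of the class. *P2ry14* made up 39.1 ± 7.87% of its TPM after PBS and 53.4 ± 5.81% after DT, whereas *P2ry12* made up 39.9 ± 3.70% and 25.5 ± 4.09%. *P2ry1* made up 6.31 ± 0.615% after PBS and 9.91 ± 2.12% after DT, and *P2ry2* 2.84% in each group. The class sum was 55.6 ± 4.96 TPM after PBS and 44.8 ± 1.52 TPM after DT. The shares of a class are bound to each other, and *P2ry12*, a member of the microglia marker list, was itself called lower by limma, with an adjusted p of 0.0232 at a log2 fold change of −0.96. *P2ry4* and *P2ry10* had no read in any library.

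*P2rx7* encodes the ATP-gated cation channel that opens at high ATP and can pass larger molecules. It lies on chromosome 5 from 122643911 to 122691432, and 16111 bases after its end begins *P2rx4*, from 122707544 to 122729738 on the same strand. The *P2rx7* level was 38.2, 33.0 and 32.6 TPM after PBS and 39.8, 31.7 and 34.1 TPM after DT. The groups overlapped through most of their range. In CPM the log2 fold change was 0.16 with an SE of 0.10 (adjusted p = 0.615, folds from 0.959 to 1.31), and in TPM it was 0.02. Leaving out PBS replicate 1 gave 0.26 in CPM (unadjusted p = 0.0212 from limma), and leaving out PBS replicate 2 gave 0.12.

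*P2rx4*, the gene of an ATP-gated channel with high calcium permeability, had 15.4, 15.4 and 16.4 TPM after PBS and 16.3, 17.5 and 13.8 TPM after DT. The DT libraries held both the highest and the lowest value. *P2rx4* had a log2 fold change of −0.0060 with an SE of 0.13 and an adjusted p of 0.991, and the interval allowed folds from 0.812 to 1.22. It was −0.07 without DT replicate 2 and 0.09 without DT replicate 3. *P2rx7* made up 55.2 ± 3.25% of the TPM of the 7 P2X genes after PBS and 54.0 ± 4.14% after DT, and *P2rx4* 25.1 ± 1.69% and 24.4 ± 3.17%. *P2rx6*, the third of the class and no member, made up 16.7 ± 1.26% and 18.7 ± 4.17%. The mean shares of *P2rx7* and *P2rx4* moved by less than their spread between libraries.

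*Entpd2* encodes NTPDase2, which hydrolyses ATP in preference to ADP. It lies on chromosome 2 from 25395874 to 25401321, and its end overlaps the start of *Npdc1* on the same strand, so reads there could be counted for either gene. Its level was 90.3, 94.7 and 83.0 TPM after PBS and 95.7, 76.8 and 80.4 TPM after DT. DT replicate 1 was the highest of all 6 libraries and the other DT libraries were the lowest. The difference was −0.10 on the log2 scale, with an SE of 0.10 and an adjusted p of 0.789, and its interval ran from a fold of 0.791 to 1.10. Without DT replicate 1 it was −0.21 (unadjusted p = 0.0402 from limma), and without DT replicate 2 it was −0.02.

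*Nt5e*, the gene of the enzyme that forms adenosine from AMP, lies on chromosome 9 from 88327197 to 88372092. It had 1.23, 1.04 and 1.70 TPM after PBS and 2.48, 1.76 and 1.84 TPM after DT. All DT libraries lay above all PBS libraries in TPM, but in CPM the highest PBS value and the lowest DT value were both 2.11 and the ranges touched. Of the 10 genes it had the smallest p-value, 0.0734 unadjusted, and the log2 fold change was 0.57 with an SE of 0.28 (adjusted p = 0.524, folds from 0.954 to 2.31). Without DT replicate 1 the value was 0.40, and without PBS replicate 3 it was 0.75 (unadjusted p = 0.0351 from limma). With all libraries kept but no variance trend, limma gave an unadjusted p of 0.0451 and an adjusted p of 0.515. Each library held only 34 to 71 *Nt5e* reads.

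*Entpd2* made up 73.2, 75.9 and 72.2% of the TPM of the 4 ecto-NTPDase genes in the PBS libraries and 78.4, 76.5 and 77.6% in the DT libraries. These shares did not overlap, and the difference was not tested. The rest of the class was almost all *Entpd1*, at 26.0 ± 1.87% after PBS and 21.9 ± 0.856% after DT. The mean *Entpd2* level was 89.3 ± 5.92 TPM after PBS and 84.3 ± 10.03 TPM after DT, and that of *Entpd1* was 31.4 ± 1.48 and 23.8 ± 1.74 TPM. Among the 3 genes for ectoenzymes that hydrolyse AMP, *Nt5e* made up 2.13 ± 0.477% after PBS and 4.06 ± 0.341% after DT, and *Alpl*, the gene of tissue-nonspecific alkaline phosphatase, made up nearly all the rest.

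**Figure D3:**
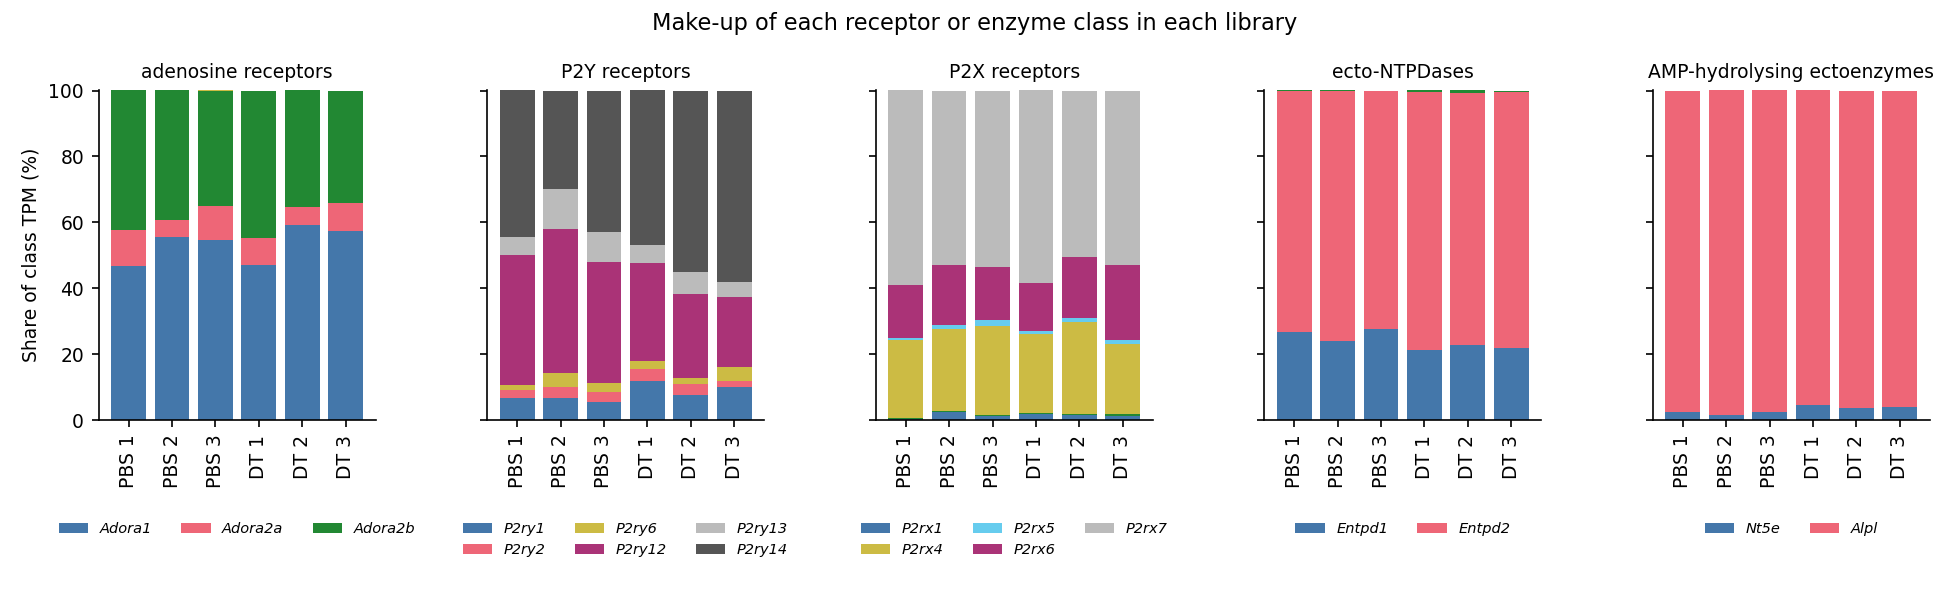
Share of each gene in the summed TPM of its class (percent), 1 bar for each library, for the adenosine, P2Y and P2X receptors, the ecto-NTPDases and the ectoenzymes that hydrolyse AMP. Genes never reaching 1% of their class are drawn but not named. The adenosine and P2X bars look alike in both groups, the *P2ry14* share is 30.0 to 44.4% after PBS and 46.9 to 58.2% after DT, and the *Entpd2* share is 72.2 to 75.9% and 76.5 to 78.4%. Shares also depend on the other genes of the class, and the TPM of *P2ry14* and of *Entpd2* overlapped between the groups.

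A wider list held 61 further genes of receptors, ectoenzymes, nucleoside transport and adenosine breakdown, ATP release, and G protein and calcium signalling. Of these, 46 had enough reads to be tested, 15 were under the filter and 6 of those had no read in any library. None was called by limma in either direction, while 4 had an unadjusted p under 0.05 with a positive sign and 4 with a negative sign, 17.4% of the 46 beside 10.4% of all genes. With edgeR none was called and 7 had an unadjusted p under 0.05, where all genes gave 10.3%. With DESeq2 *Adk* was called higher and *Entpd1* lower, 2 of 46, where all genes gave 2.15%. In CPM 8 of the 46, or 17.4%, had no overlap between the groups, near the 16.3% of all genes. The median log2 fold change of the 46 was −0.01.

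**Figure D4:**
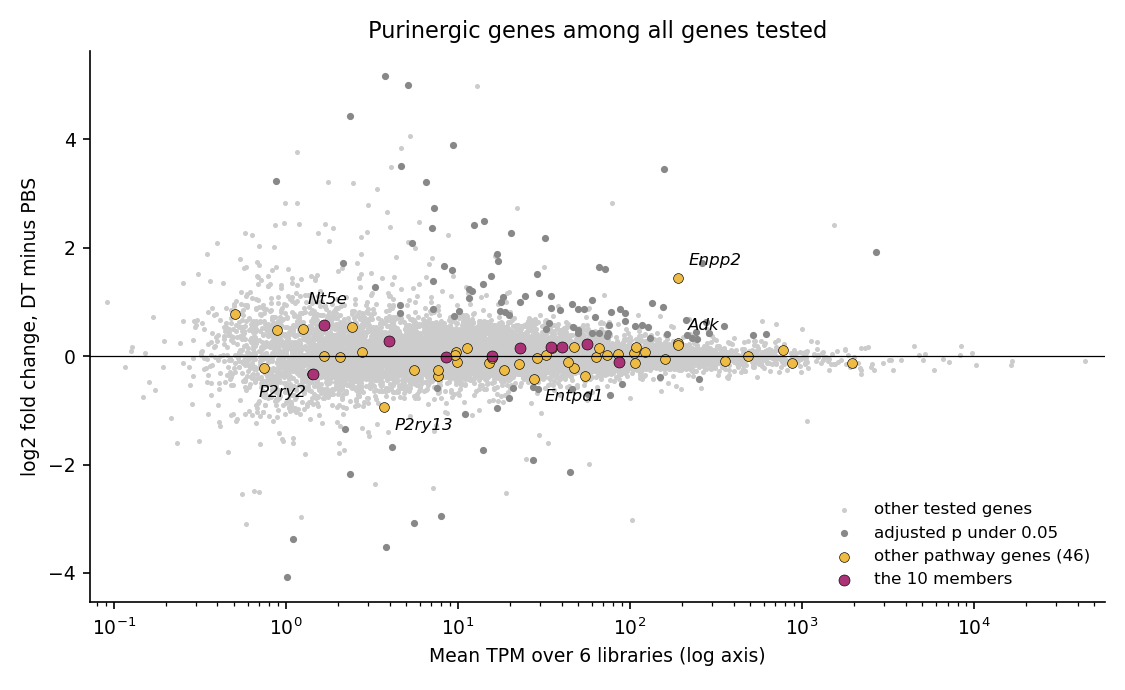
Log2 fold change of CPM + 0.1, DT minus PBS, against the mean TPM over 6 libraries (log axis) for the genes tested. The 10 members (purple) and 46 other pathway genes (yellow) lie within the cloud of all genes, and none is among the 108 genes with an adjusted p under 0.05 (dark grey).

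Among the other enzymes, *Entpd1*, which encodes CD39 and is known from microglia and vessels, had 32.8, 29.9 and 31.6 TPM after PBS and 25.8, 22.9 and 22.7 TPM after DT. Its groups did not overlap, and its log2 fold change of −0.41 with an SE of 0.09 had an adjusted p of 0.125 from limma and 0.0145 from DESeq2. *Alpl* had 61.3 ± 9.01 TPM after PBS and 47.5 ± 5.09 TPM after DT, and the log2 fold change was −0.37 at an adjusted p of 0.349. *Enpp2*, the gene of autotaxin, which forms lysophosphatidic acid and is abundant in choroid plexus, had 81.8, 216 and 44.5 TPM after PBS and 349, 305 and 148 TPM after DT. Its log2 fold change of 1.45 with an SE of 0.52 had an adjusted p of 0.393, and it ran from 0.92 without PBS replicate 3 to 2.04 without PBS replicate 2 (adjusted p = 0.105).

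In the group for nucleoside transport and adenosine breakdown, 8 of 10 genes were tested and the median log2 fold change was 0.16. *Adk*, the gene of adenosine kinase, the main route of adenosine removal in astrocytes, had 172 ± 5.15 TPM after PBS and 206 ± 4.18 TPM after DT. Its groups did not overlap, and the difference of 0.25 on the log2 scale with an SE of 0.06 had an adjusted p of 0.158 from limma and 0.0384 from DESeq2. *Pnp*, a purine nucleoside phosphorylase gene, had 103 ± 16.6 and 107 ± 11.7 TPM, and *Slc29a3*, an equilibrative nucleoside transporter gene, had 15.7 ± 1.77 and 14.5 ± 0.578 TPM.

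Of 5 other receptor genes tested, of 10 listed, *P2rx6* had 10.5 ± 0.848 TPM after PBS and 12.1 ± 2.45 TPM after DT. *P2ry6*, a UDP receptor gene, had 1.58 ± 0.693 and 1.24 ± 0.546 TPM. *P2ry13*, an ADP receptor gene known from microglia, had 3.03, 6.18 and 5.72 TPM after PBS and 2.39, 3.18 and 1.91 TPM after DT, at a log2 fold change of −0.93 with an SE of 0.31 and an adjusted p of 0.349. PBS replicate 1 lay between DT replicates 1 and 2, so the groups overlapped.

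In the ATP release group, 7 of 10 genes were tested and the median log2 fold change was 0.02. The connexin 43 gene *Gja1* had 2028 ± 135 TPM after PBS and 1869 ± 155 TPM after DT, and the connexin 30 gene *Gjb6* had 366 ± 39.1 and 347 ± 14.1 TPM. *Lrrc8a*, which encodes the essential subunit of the volume-regulated anion channel, had 177 ± 20.2 and 204 ± 7.25 TPM, with an adjusted p of 0.521. Of 23 genes for G proteins, phospholipase C beta, inositol trisphosphate receptors and adenylyl cyclases, 22 were tested and the median was −0.03. The G protein genes with the highest levels were *Gnao1* (902 ± 53.4 TPM after PBS and 835 ± 32.0 TPM after DT), *Gnai2* (739 ± 25.1 and 804 ± 13.8 TPM) and *Gnas* (472 ± 16.3 and 494 ± 21.2 TPM), with adjusted p-values of 0.560, 0.534 and 0.999 from limma.

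Some of these genes varied between libraries, or differed in group mean, along with markers of other cell types, whose part in the results was not tested. *Adora1* was lowest in PBS replicate 1 and DT replicate 1, the libraries in which 11 neuron markers also had their lowest sums, 480 and 407 TPM beside 594 to 776 TPM in the other 4. *P2ry14* and *Adora2a* were lowest in PBS replicate 2, where 10 mural cell markers also summed to their lowest, 921 TPM, beside 1077 to 1509 TPM elsewhere. Of these 10 markers 5 were lowest in that library and the other 5 in DT replicate 1. The astrocyte and border-associated macrophage sums were also lowest in PBS replicate 2. The highest libraries differed: PBS replicate 3 for *P2ry14*, PBS replicate 1 for *Adora2a* and DT replicate 3 for the mural sum. *Entpd1* and *P2ry13* had lower means in the DT group, as had the microglia list and the endothelial list. Median log2 fold changes were −1.33 for the microglia list and −0.39 for the endothelial list, beside −0.41 for *Entpd1* and −0.93 for *P2ry13*. The highest library was PBS replicate 1 for *Entpd1*, PBS replicate 2 for *P2ry13* and PBS replicate 3 for the sums of both lists. *Enpp2* was lowest in PBS replicate 3 and highest in DT replicate 1, as was the sum of 11 choroid plexus markers, at 113 and 3461 TPM. Most of that sum was *Ttr*, at 80.2 and 3351 TPM in these libraries. Of the 11 markers 8 were lowest in PBS replicate 3 and 8 were highest in DT replicate 1. All 11 had a positive log2 fold change with none called. For *Alpl*, also known from endothelium, the summed levels of 12 endothelial markers were 831 to 1345 TPM after PBS and 709 to 865 TPM after DT, all 12 with a negative log2 fold change, 4 without overlap of CPM and none called. The remaining lists held no called gene, but the sums of some differed between the groups. The 10 ependymal markers summed to 521 to 698 TPM after PBS and 709 to 1221 TPM after DT. Their log2 fold changes had a median of 0.46, with all 10 signs positive, 8 genes without overlap of CPM, and each of the 10 highest in DT replicate 3. The 9 oligodendrocyte precursor markers summed to 307 to 351 TPM after PBS and 264 to 295 TPM after DT, again without overlap. Their log2 fold changes had a median of −0.30, with 6 signs negative and 3 positive. In CPM 2 of the 9 did not overlap, beside 16.3% of all genes tested. These were *Pdgfra* and *Gpr17*, named after their values were seen, at log2 fold changes of −0.53 and −0.86. The 9 oligodendrocyte markers summed to 468 to 580 and 413 to 509 TPM, and the 9 meningeal fibroblast markers to 86.2 to 127 and 94.1 to 134 TPM. Of 6 blood leukocyte markers 4 had no read in any library, and the list summed to 3.44 to 7.04 and 2.72 to 4.595 TPM.

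**Figure D5:**
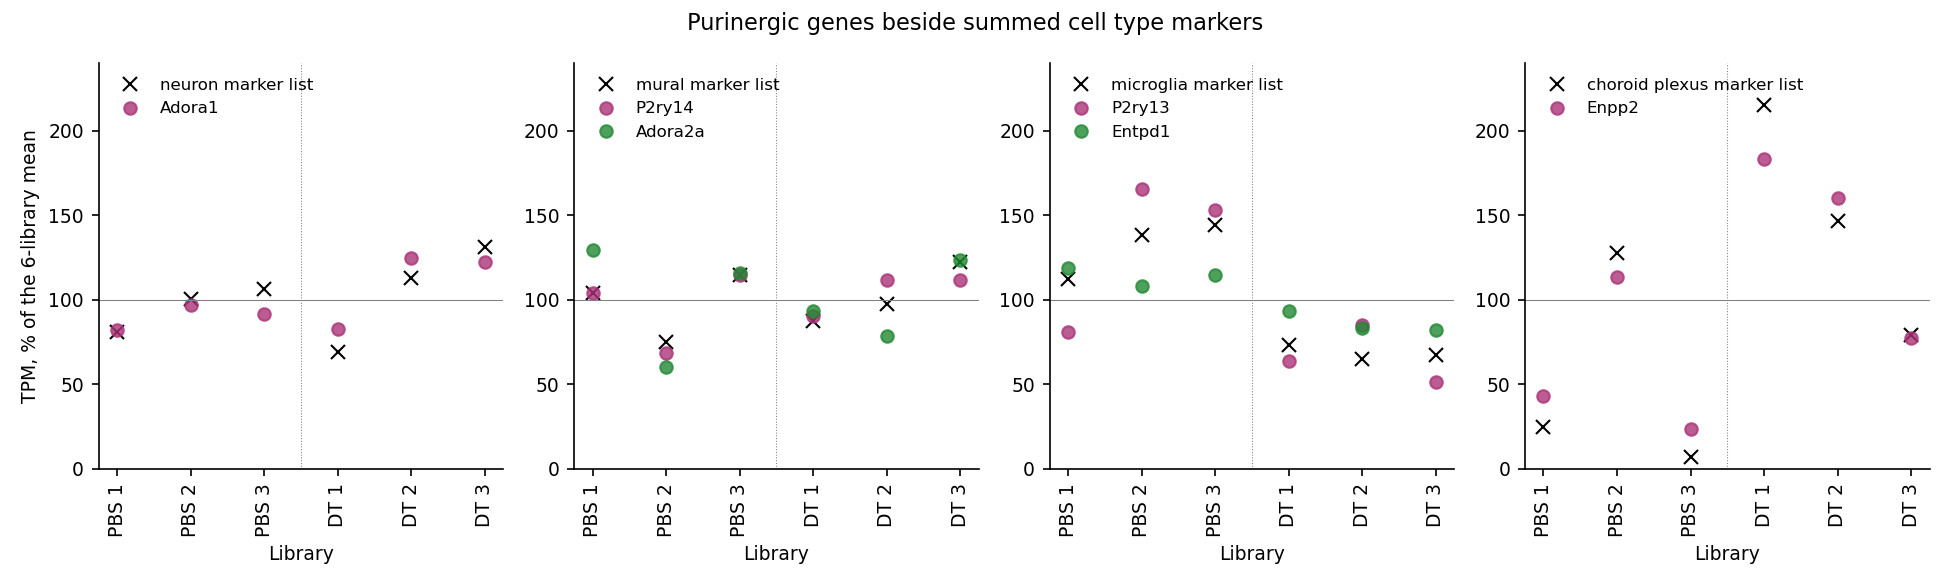
TPM of 6 purinergic genes (circles) and the summed TPM of marker lists (crosses) in each library, each as a percent of its own mean over 6 libraries, with PBS libraries left of the dotted line and DT libraries right of it. *Adora1* stands beside the neuron list, *P2ry14* and *Adora2a* beside the mural list, *P2ry13* and *Entpd1* beside the microglia list, and *Enpp2* beside the choroid plexus list. The choroid plexus list, whose sum is mostly *Ttr*, runs from 7.05% to 215% of its mean. The endothelial list, also lower in its mean after DT, is not drawn.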

How the data were processed

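RNA-seq was performed on hippocampal astrocytes isolated by MACS. According to the methods, libraries were stranded and sequenced as paired ends, reads were trimmed with Trim Galore 0.5.0, mapped to mm10 with HISAT2 2.1.0 using strand, cleared of rDNA reads with BEDTools 2.25.0 and quantified with StringTie 1.3.5 and edgeR 3.24.3. The authors deposited CPM and TPM per gene and library. In the deposited CPM signal, the authors had scaled library sizes by factors of 0.974 to 1.02, so columns sum to 980428 to 1026170 and the design's assumption of plain CPM was not met, but the same test was used. The tables also hold the deposited p-value, q-value and log2 fold change columns of the authors' comparison, none of which was used, and 27 names that had become dates.

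Whole reads were recovered from the deposited CPM for 100% of values, within 0.05 read. The groups come from the sample titles, 3 libraries each. With limma 3.58.1 in R 4.3.3, log2(CPM + 0.1) of genes whose CPM averaged 0.5 or more was compared with a variance trend, two-sided, with Benjamini-Hochberg adjustment and a threshold of 0.05. Intervals are at 95%. The p-values measure the spread between pools. Alternatives were the replicate number as a block, leaving out each library in turn, TPM in place of CPM, pseudocounts of 0.5 and 1, no filter, a filter at a mean CPM of 2, a fit without the variance trend, quantile normalization, and edgeR 4.0.16 (quasi-likelihood) and DESeq2 1.42.0 on the recovered reads. The fits were tested on simulated data with changes larger than those of the members, so this test does not bear on differences of the members' size. Positions and overlaps are from GENCODE M21 on mm10.

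The members and lists were chosen with earlier results of these data known. Named are the 10 members and, in each pathway list, the 3 genes with the highest mean TPM and any gene that was called. Genes with a pattern like a member's were to be named only for members with an unadjusted p under 0.05, of which there was none. *Abcg1* had been put in the ATP release list by mistake and was left out of its counts. No protein or promoter sequence is shown, since these data bear on RNA levels only.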

Additional observations from a re-analysis of the deposited data

How the results depend on the processing

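No member was called under any of the 16 alternatives. With DESeq2, 227 genes were higher and 98 lower over all genes, and 1 pathway gene was higher (*Adk*, log2 fold change 0.25) and 1 lower (*Entpd1*, −0.41), and without the variance trend 35 were higher and 11 lower. Leaving out 1 library gave 39 (without DT replicate 1) to 72 higher and 9 (without PBS replicate 2) to 20 lower. The count of lower genes was 11 without PBS replicate 1, 10 without PBS replicate 3 and 10 without DT replicate 2, and that of higher genes was 40 without DT replicate 2. The cause was not tested.

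The sign turned for *P2rx4* with TPM (0.0060), edgeR (0.0058) and DESeq2 (0.0055), for *Adora2a* with TPM (0.0025), and for *Gnas* with TPM (0.0636), quantile normalization (0.0024), edgeR (0.0031) and DESeq2 (0.0017). With 1 library left out the log2 fold change ran from −0.066 to 0.0927 for *P2rx4*, −0.36 to 0.21 for *Adora2a*, −0.10 to 0.28 for *P2ry14*, −0.0056 to 0.0102 for *Gnas*, −0.17 to 0.0089 for *Gjb6*, −0.0795 to 0.15 for *Pnp* and −0.0077 to 0.26 for *P2rx6*. The other 7 members kept their sign under every alternative run, but *P2ry2* was not tested at a mean CPM of at least 2.

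Same-numbered libraries deviated together with correlations of 0.115, 0.0105 and 0.118, and not every library correlated best with its own number, so the pairing was not shown. With the replicate number as a block, 79 genes were higher and 30 lower, and no member or pathway gene was called. In this limma fit *Adora1* had an unadjusted p under 0.05, and the adjusted p was 0.0678 for *Entpd1* and 0.0838 for *Enpp2*. Of the pathway genes 14 had an unadjusted p under 0.05, beside 8 in the main fit, and the share of all genes in the block fit was not computed. The shares of a class depend on length: in CPM, *Adora1* made up 73.9% of the adenosine receptors after PBS and *Entpd2* 56.4% of the ecto-NTPDases. Of 80 alternative share values, 18 moved by more than 1 SD. All 18 were in CPM, which gave 1 value for each of the 10 members in each group. The other alternatives left out 1 of 3 libraries, which cannot shift a mean by 1 SD, so they do not test stability. Depth limits *P2ry2* and *Nt5e* most, with 18 to 71 reads in a library.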

Other observations

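The following genes were picked after their values had been seen. *Entpd3*, a further ecto-NTPDase gene, was under the filter on low values, with 6, 5 and 6 reads in the PBS libraries and 16, 24 and 15 reads in the DT libraries, 0.193 ± 0.0592 TPM (SD, n = 3) and 0.599 ± 0.0552 TPM (SD, n = 3). In the Gq and Gs pathways, *Plcb3*, a phospholipase C beta gene, had 102 ± 3.38 TPM after PBS and 116 ± 4.48 TPM after DT (log2 fold change 0.17, unadjusted p = 0.0220 and adjusted p = 0.388 from limma). *Adcy9*, an adenylyl cyclase gene, had 44.7 ± 0.327 TPM after PBS and 50.4 ± 1.74 TPM after DT (log2 fold change 0.16, unadjusted p = 0.0162 and adjusted p = 0.362 from limma). *Plcb4* went the other way, with 50.3 ± 2.59 TPM after PBS and 43.6 ± 5.97 TPM after DT (log2 fold change −0.23, unadjusted p = 0.0461 and adjusted p = 0.473 from limma).

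The CPM and TPM of *P2rx7* did not move together. Its CPM were 48.0, 39.5 and 39.5 after PBS and 50.4, 43.8 and 47.8 after DT, so the ratio of CPM to TPM, relative to that of the median gene of the library, was 1.26, 1.25 and 1.24 in the PBS libraries and 1.28, 1.45 and 1.46 in the DT libraries. DT replicates 2 and 3 stood apart. Most genes kept this ratio: the highest value over the lowest was 1.17 for *P2rx7*, at percentile 97.6 of 15022 genes, and 1.0046 for the median gene. The annotated coding transcripts of *P2rx7* are 1605, 712, 4936, 2576 and 1848 nucleotides long. Transcript-level values were not used here.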
